A study of Mus musculus with 18 samples.

Results

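The 10 transcripts described here are those of 7 annexin genes (Anxa1 to Anxa7) and 3 S100 genes (S100a4, S100a6 and S100a11). They were chosen by name, as genes associated with tissue injury, with earlier results of these data known. All 10 were among the 16245 genes in the table of liver RNA counts. The liver samples came from 18 wild-type mice labelled C57BL/6 (male C57BL/6J in the study's methods), with 6 in each of 3 groups. All mice, controls included, ate a NASH diet, high in fat and fructose, and were housed at about 29 °C from 8 weeks of age. Vehicle mice received the injection solution alone and ate freely. GDF15 mice received recombinant GDF15, a stress-induced cytokine that lowers food intake, under the skin once a day. Doses named in the labels for the study are 5, 1 and 0.3 nmol per kg, with no dose tied to a mouse. The study's own text and figure legend differ on which dose the sequenced mice received, so the dose behind the GDF15 group is uncertain. PairFed mice received no GDF15 and each day were given the amount of food that the GDF15 mice had eaten, so that GDF15 against PairFed compares livers at matched food intake. Mice were kept singly after assignment to groups matched for body weight, and whether the replicate numbers mark a shared batch is not stated.

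Annexins are soluble proteins that bind acidic phospholipids in the presence of calcium. When calcium enters a damaged cell they move to the inner face of the membrane, where they gather lipids, link membranes to the actin cytoskeleton and help to close tears. S100 proteins are small dimers of the EF-hand type that change shape on binding calcium, and several dock onto the tails of annexins. In liver, many of these transcripts are more abundant in biliary, mesenchymal, endothelial and immune cells than in resting hepatocytes, and several are used as markers of regenerating or diseased tissue.

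Libraries held 16508864 to 35301853 counts. Hepatocyte transcripts were abundant in every sample, as the label liver requires. The sum of 6 hepatocyte genes ranged from 1419020 to 1778780 normalised counts in Vehicle, from 1960790 to 2274700 in GDF15 and from 1288940 to 1976910 in PairFed livers. Normalised counts were counts divided by a size factor for each library. When libraries were instead scaled by their total counts, the median log2 fold change over all genes shifted by -0.17 against Vehicle and by -0.16 against PairFed, and the falls reported below grew by about that much.

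Of the 10 transcripts, 9 were lower in GDF15 than in Vehicle livers and 0 were higher (DESeq2, Benjamini-Hochberg adjusted p under 0.05 over all genes), where 17.5% of all tested genes were called lower and 15.8% higher. The same 9 were lower in GDF15 than in PairFed livers, where 13.8% of all tested genes were called lower and 13.3% higher. Anxa6 was the transcript that did not pass. The median log2 fold change of the 10 was -1.21 against Vehicle and -0.82 against PairFed, beside medians of 0.00 and -0.00 over all tested genes. In 8 of the 10, all 6 GDF15 samples lay below all 6 Vehicle samples, as was the case for 6.94% of tested genes. Likewise 8 lay below all 6 PairFed samples, against 5.23% of tested genes. With a fold change above 2-fold required as well (an absolute log2 fold change above 1), 6 remained against Vehicle, where 5.37% of tested genes passed, and 4 against PairFed, where 2.75% passed. These 4 were Anxa2, Anxa5, S100a4 and S100a11. The comparisons of GDF15 with Vehicle and with PairFed share the GDF15 samples and are not independent of each other. Because the 10 were chosen with earlier results known, these counts describe them and are not independent evidence about the gene families.

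**Figure D1:**
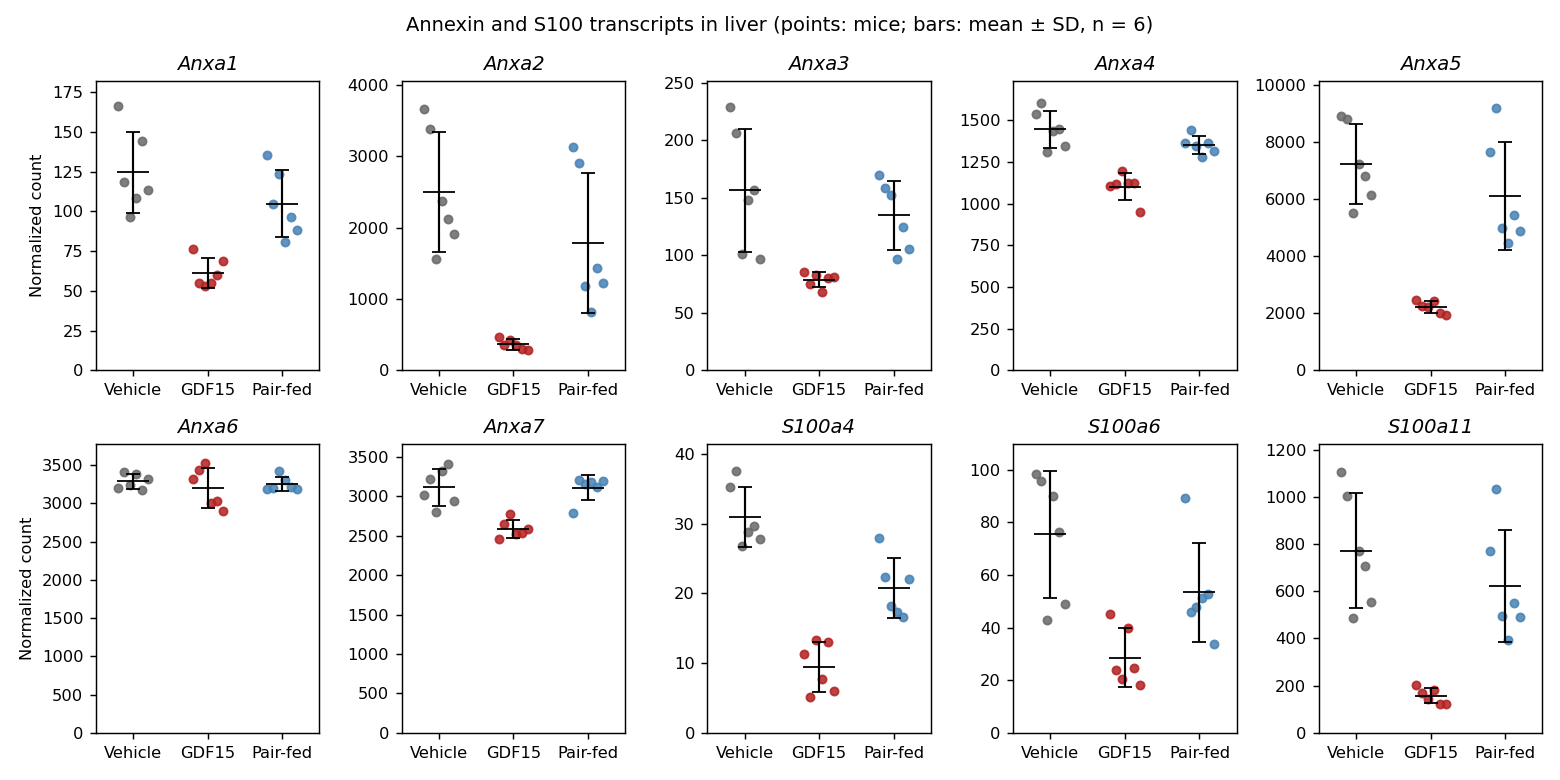
Normalised counts (vertical axes, starting at 0) of the 10 transcripts in each of the 18 mice, by group. Points are mice and bars are the mean ± SD of 6 mice, and the GDF15 points of Anxa2 (283 to 470) lie below every Vehicle and PairFed point while those of Anxa6 do not stand apart.

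Anxa2 and S100a11 fell most in both GDF15 comparisons, and Anxa5 came next against PairFed, while against Vehicle Anxa5 and S100a4 fell by like amounts. The 250 bases upstream of the RefSeq start sites (GRCm38.p6, the patch release of the mm10 build named in the submitters' processing notes) are shown for Anxa2, S100a11 and Anxa5, the 3 with the largest falls against PairFed, in lower case with matches to 3 short motifs in capitals: the AP-1 site (TGACTCA or TGAGTCA), the GC box (GGGCGG or CCGCCC) and the TATA box (TATAAA or TTTATA). Each sequence runs 5′ to 3′ on the strand of the gene, and the GENCODE start of each of these 3 genes lies inside its window.
Anxa2, chr9:69453433-69453682, plus strand: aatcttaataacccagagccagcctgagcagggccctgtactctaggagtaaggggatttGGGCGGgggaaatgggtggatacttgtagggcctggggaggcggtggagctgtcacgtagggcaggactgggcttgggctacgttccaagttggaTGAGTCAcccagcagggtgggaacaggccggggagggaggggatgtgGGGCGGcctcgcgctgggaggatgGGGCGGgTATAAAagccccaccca
S100a11, chr3:93520246-93520495, plus strand: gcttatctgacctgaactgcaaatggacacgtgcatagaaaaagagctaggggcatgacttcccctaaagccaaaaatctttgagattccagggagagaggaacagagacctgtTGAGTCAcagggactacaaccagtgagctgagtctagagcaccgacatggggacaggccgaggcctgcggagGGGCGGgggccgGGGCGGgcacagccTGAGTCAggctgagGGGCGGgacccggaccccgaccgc
Anxa5, chr3:36475888-36476137, minus strand: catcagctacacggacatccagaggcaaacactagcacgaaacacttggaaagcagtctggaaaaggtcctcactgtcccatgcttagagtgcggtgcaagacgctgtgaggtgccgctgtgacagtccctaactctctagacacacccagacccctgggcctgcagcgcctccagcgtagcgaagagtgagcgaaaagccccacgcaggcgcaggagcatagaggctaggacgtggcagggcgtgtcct
The Anxa2 window held 1 match to the AP-1 site, 3 to the GC box and 1 to the TATA box. The S100a11 window held 2 AP-1 matches and 3 GC boxes, and the Anxa5 window held none of the 3 motifs. Over the 10 windows available for 8 of the transcripts, 2 held an AP-1 match, 4 a GC box and 3 a TATA box, against 4.46%, 32.7% and 12.4% of 32851 windows of the same length over all genes. The 4 windows with a GC box belong to Anxa2, S100a11 and Anxa7, whose 2 windows overlap and share 1 of their matches. The motifs CCAAT and GGAATG, read on both strands as ATTGG and CATTCC too, were each found in 1 of the 10 windows, against 33.8% and 12.6% of all windows. The motifs were chosen after the fold changes were known, and a match of letters is a description of the window only. No window was available for Anxa3 and Anxa6.

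Anxa2 (chromosome 9, 69453620 to 69491795, plus strand, GENCODE M21 on mm10) encodes annexin A2, which binds S100A10 and, on the cell surface, serves as a docking site for plasminogen and tissue plasminogen activator. Its normalised count was 1554 in the lowest, 2248 in the median and 3659 in the highest Vehicle liver. It was 283, 353 and 470 in GDF15 livers and 815, 1328 and 3125 in PairFed livers. The GDF15 samples lay below all others, without overlap, and both control groups spread over a range of more than 2-fold. The mean was 2502 ± 841 (SD, n = 6) in Vehicle, 362 ± 72.1 in GDF15 and 1781 ± 979 in PairFed. The fitted log2 fold change was -2.79 ± 0.32 (SE) against Vehicle (DESeq2 adjusted p = 2.16e-15), 85.5% lower, and -2.30 ± 0.32 against PairFed (adjusted p = 1.75e-10), 79.7% lower. Fewer cells of a type that carries the transcript and less RNA per cell cannot be told apart in whole liver, for this and every transcript below.

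The PairFed values of Anxa2 fell into a high and a low set. Replicates 1 and 2 read 3125 and 2906, and the other 4 lay between 815 and 1430. PairFed replicates 1 to 3 also had the smallest libraries of that group. Without these 3 libraries the difference between GDF15 and PairFed was -1.67 on the log2 scale (adjusted p = 4.76e-09), and without the 3 largest PairFed libraries it was -2.73 (adjusted p = 7.85e-14), so the size of the fall depended on which PairFed livers were compared and its direction did not. The part of library size in this split was not tested.

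Anxa5 (chromosome 3, 36448923 to 36475894, minus strand) encodes annexin A5, which coats exposed phosphatidylserine and forms lattices on damaged membranes. Its values were 5518, 7024 and 8912 in the lowest, median and highest Vehicle livers, 1926, 2235 and 2460 in GDF15 livers, and 4461, 5221 and 9210 in PairFed livers. No GDF15 sample overlapped either control group, and the highest GDF15 value lay well under the lowest PairFed value. By the fit it changed by -1.71 ± 0.16 on the log2 scale against Vehicle (DESeq2 adjusted p = 1.41e-22) and -1.46 ± 0.16 against PairFed (adjusted p = 1.21e-16). The mean GDF15 count of 2214 ± 217 (SD, n = 6) was 69.4% lower than the mean Vehicle count.

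Anxa1 (chromosome 19, 20373428 to 20390944, minus strand) encodes annexin A1, which is secreted and acts on formyl peptide receptors to limit the recruitment of neutrophils. Vehicle livers read from 96.6 to 166 with a median of 116, GDF15 livers from 53.2 to 76.3 with a median of 57.5, and PairFed livers from 80.8 to 136 with a median of 100.5. The GDF15 livers lay below all others, by a small gap to the lowest PairFed liver, while Vehicle and PairFed livers overlapped. On the log2 scale the fold change was -1.02 ± 0.17 against Vehicle (DESeq2 adjusted p = 3.01e-08) and -0.76 ± 0.17 against PairFed (adjusted p = 8.32e-05).

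Anxa3 (chromosome 5, 96793339 to 96845966, plus strand) encodes annexin A3, known from neutrophil granules and from growing hepatocytes. Its values were 96.6, 153 and 229 in the lowest, median and highest Vehicle livers, 68.1, 80.6 and 85.8 in GDF15 livers, and 96.5, 138 and 170 in PairFed livers. Again every GDF15 liver lay below every other liver, and the GDF15 group was the tightest, with an SD of 6.32 around a mean of 78.9 against 53.8 around 156 in Vehicle. Fitted log2 fold changes were -0.99 ± 0.20 against Vehicle (DESeq2 adjusted p = 1.67e-05) and -0.76 ± 0.20 against PairFed (adjusted p = 0.00157). Without the 3 smallest PairFed libraries the latter value was -0.46 (adjusted p = 0.185) and no longer passed.

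Anxa4 and Anxa7 fell by less, and with little spread. Anxa4 (chromosome 6, 86736840 to 86793584, minus strand) encodes annexin A4, an annexin of epithelia that includes the biliary lining. It read 1308, 1442 and 1606 in the lowest, median and highest Vehicle livers, 949, 1121 and 1195 in GDF15 livers and 1278, 1355 and 1441 in PairFed livers. No GDF15 liver overlapped another group, and the log2 fold change was -0.39 ± 0.06 against Vehicle (DESeq2 adjusted p = 4.33e-09) and -0.29 ± 0.06 against PairFed (adjusted p = 2.52e-05), 23.8% and 18.4% lower. Anxa7 (chromosome 14, 20455260 to 20480133, minus strand) encodes annexin A7, which promotes fusion of secretory vesicles. It read 2805, 3115 and 3410 in Vehicle, 2454, 2560 and 2778 in GDF15, and 2791, 3165 and 3209 in PairFed livers. The highest GDF15 liver lay just below the lowest PairFed liver. The log2 fold change of Anxa7 was -0.27 ± 0.05 against Vehicle (DESeq2 adjusted p = 1.02e-05) and -0.26 ± 0.05 against PairFed (adjusted p = 1.80e-05).

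Anxa6 (chromosome 11, 54979108 to 55033445, minus strand) encodes annexin A6, which carries a doubled core of annexin repeats and takes part in endosome traffic and cholesterol handling. Its values were 3174, 3276 and 3409 in the lowest, median and highest Vehicle livers, 2905, 3176 and 3533 in GDF15 livers, and 3181, 3205 and 3415 in PairFed livers. The 3 groups overlapped throughout, and the GDF15 group was wider than either control group, with an SD of 260 against 98.7 and 92.9. Against Vehicle the log2 fold change was -0.035, with a 95% interval from -0.13 to 0.06 (DESeq2 adjusted p = 0.619). Against PairFed it was -0.018, with an interval from -0.11 to 0.08 (adjusted p = 0.820). Under total-count scaling Anxa6 read -0.21 against Vehicle (adjusted p = 0.00718) and -0.18 against PairFed (adjusted p = 0.0208), close to the shift of the median gene under that scaling, so whether it counts as lower rests on the scaling.

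S100a11 (chromosome 3, 93520488 to 93526287, plus strand) encodes S100A11, the partner of annexin A1, which is also known from wound closure at the plasma membrane. Its values were 488, 739 and 1106 in the lowest, median and highest Vehicle livers, 122, 156 and 205 in GDF15 livers, and 392, 524 and 1031 in PairFed livers. The GDF15 livers stood apart from both control groups. Its log2 fold change was -2.29 ± 0.23 against Vehicle (DESeq2 adjusted p = 2.66e-20), 79.6% lower, and -1.98 ± 0.23 against PairFed (adjusted p = 3.63e-15), 74.7% lower.

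S100a4 and S100a6 lie near each other on chromosome 3, in the S100 gene cluster. S100a4 (90603771 to 90606045, plus strand) encodes a protein of motile fibroblasts and macrophages that binds non-muscle myosin. It had the lowest counts of the 10, at 26.8, 29.3 and 37.5 normalised counts in the lowest, median and highest Vehicle livers, 5.16, 9.49 and 13.3 in GDF15 livers and 16.6, 20.1 and 28.0 in PairFed livers. Even at these low counts no GDF15 liver overlapped another group. The log2 fold change was -1.71 ± 0.27 against Vehicle (DESeq2 adjusted p = 7.08e-09) and -1.12 ± 0.27 against PairFed (adjusted p = 4.68e-04). S100a6 (90612882 to 90624181, plus strand) encodes calcyclin, a protein of dividing cells and of biliary and mesenchymal cells. It read 43.1, 83.1 and 98.4 in Vehicle, 18.1, 24.2 and 45.1 in GDF15, and 33.7, 49.4 and 89.4 in PairFed livers. Here the groups overlapped: GDF15 replicate 1 (45.1) lay above the lowest Vehicle liver, and GDF15 replicates 1 and 4 (39.8) lay above the lowest PairFed liver. The log2 fold change of S100a6 was -1.39 ± 0.28 against Vehicle (DESeq2 adjusted p = 9.83e-06) and -0.88 ± 0.28 against PairFed (adjusted p = 0.00957). Without the 3 smallest PairFed libraries the latter was -0.66 (adjusted p = 0.161).

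**Figure D2:**
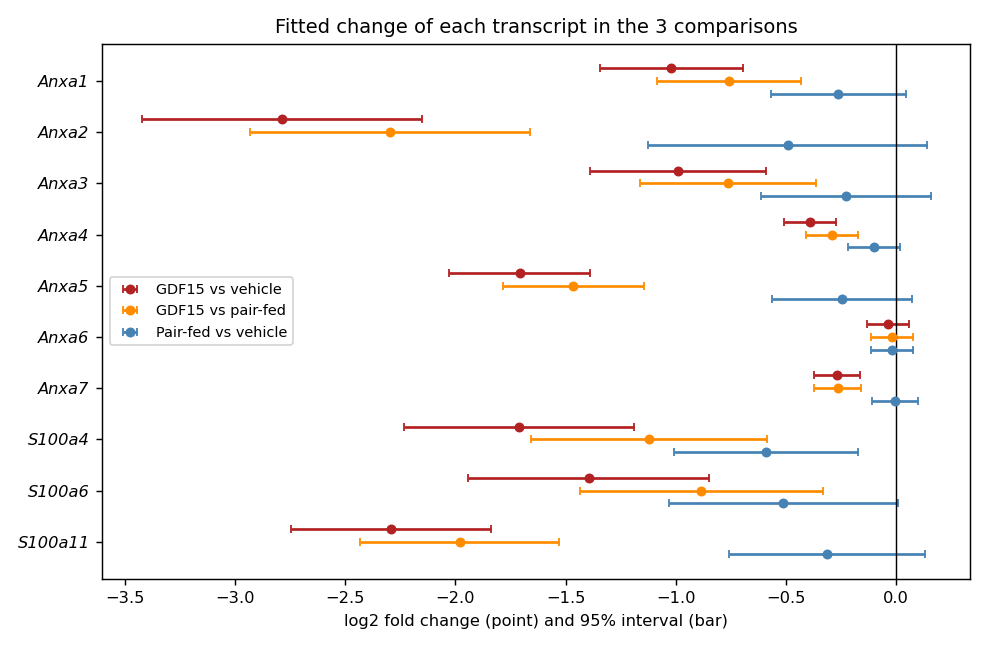
Log2 fold change (horizontal axis, points) with 95% interval (bars) of each of the 10 transcripts in the 3 comparisons, from 1 fit to all 18 samples. The GDF15 intervals of 9 transcripts lie left of 0, those of Anxa6 cross 0, and the PairFed against Vehicle intervals cross 0 in all but S100a4 (-1.01 to -0.17), which was not called after adjustment.

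Pair-feeding was compared with Vehicle to see what matched food intake alone did to these transcripts. None of the 10 was called in DESeq2 (0 lower and 0 higher), as was 0% of all 16242 tested genes, of which 718 had an unadjusted p under 0.05. In none of the 10 did all PairFed livers lie below all Vehicle livers, against 0.0985% of tested genes. The 10 point estimates lay below 0, with a median of -0.25, beside -0.00 over all tested genes. At an unadjusted p under 0.05 there was 1 transcript by DESeq2 and 1 by edgeR, which also called 0 after adjustment. By DESeq2 it was S100a4, with a log2 fold change of -0.59 ± 0.21 (adjusted p = 0.998), and 5 of 6 PairFed livers below the lowest Vehicle liver. For Anxa2 the estimate was -0.49 with a 95% interval from -1.12 to 0.14, for Anxa5 it was -0.24 (-0.56 to 0.07), and for S100a11 it was -0.31 (-0.76 to 0.13). These intervals leave room for falls of the size given by their lower bounds, so a smaller count under pair-feeding was neither called nor excluded. In 4 of 6 PairFed livers Anxa2 and Anxa5 each lay below every Vehicle liver, while replicates 1 and 2 did not. Without the 3 smallest PairFed libraries 2 transcripts were called lower than in Vehicle, Anxa2 at -1.12 (DESeq2 adjusted p = 0.0129) and Anxa5 at -0.56 (adjusted p = 0.0466), and without the 3 largest they read -0.056 and 0.011. The 3 smallest include replicates 1 and 2, the highest PairFed livers on Anxa2 (3125 and 2906) and Anxa5 (7651 and 9210). Leaving them out lowers the PairFed values by itself, so these 2 calls carry no separate weight. The share of all genes called in that smaller fit is not given here.

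Because annexins work with S100 partners, each of the 2 best known pairs was compared within samples as a log2 ratio, which does not depend on library size. Annexin A2 forms a tetramer with S100A10. S100a10 itself read 3741 ± 405 (SD, n = 6) in Vehicle, 2215 ± 277 in GDF15 and 3646 ± 895 in PairFed livers, and was lower in GDF15 by -0.76 ± 0.14 against Vehicle (DESeq2 adjusted p = 8.63e-07) and -0.72 ± 0.14 against PairFed (adjusted p = 4.54e-06). The log2 ratio of Anxa2 to S100a10 was -0.64 ± 0.44 in Vehicle, -2.62 ± 0.33 in GDF15 and -1.17 ± 0.46 in PairFed livers. All 6 GDF15 ratios (-2.96 to -2.07) lay below all Vehicle ratios (-1.30 to -0.14) and all PairFed ratios (-1.58 to -0.43). The difference was -1.99 against Vehicle and -1.45 against PairFed, each with an exact two-sided permutation p = 0.00216, the smallest that 924 splits of 6 against 6 can give, and 0.00325 after adjustment over 6 such tests. Thus the Anxa2 transcript fell by more than that of its partner. Between PairFed and Vehicle the ratio differed by -0.53 (exact permutation p = 0.0736, adjusted p = 0.0883, n = 6). This crossed the threshold when Vehicle replicate 3 (-0.66, adjusted exact p = 0.0390) or PairFed replicate 1 (-0.68, adjusted exact p = 0.0312) was left out. These 2 livers had the lowest Vehicle ratio (-1.30) and the highest PairFed ratio (-0.43), so leaving out either widens the difference by itself.

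The pair of annexin A1 and S100A11 went the other way. The log2 ratio of Anxa1 to S100a11 was -2.59 ± 0.33 in Vehicle, -1.34 ± 0.33 in GDF15 and -2.51 ± 0.43 in PairFed livers (SD, n = 6). The GDF15 ratios (-1.69 to -0.85) lay above all Vehicle and PairFed ratios. The differences were 1.25 against Vehicle and 1.17 against PairFed (each exact permutation p = 0.00216, adjusted p = 0.00325), so S100a11 fell by more than Anxa1. The PairFed and Vehicle ratios differed by 0.082 (exact permutation p = 0.708).

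**Figure D3:**
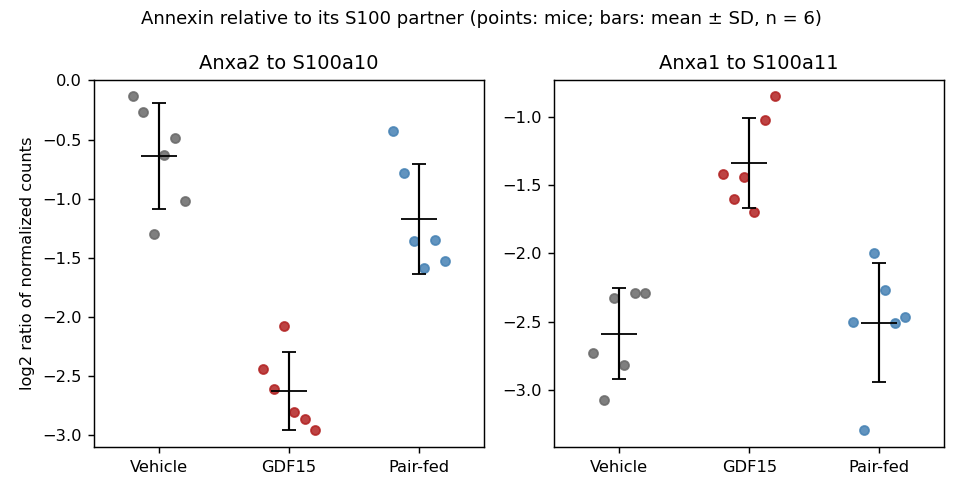
Log2 ratio of normalised counts (vertical axes) of Anxa2 to S100a10 and of Anxa1 to S100a11 in each mouse, by group. Points are mice and bars the mean ± SD of 6 mice, with the GDF15 points lowest for Anxa2 to S100a10 (-2.96 to -2.07) and highest for Anxa1 to S100a11 (-1.69 to -0.85).

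Levels were compared between genes as normalised counts per kilobase of the median coding transcript. The length was the full annotated length, from 498 bases for S100a4 to 2851 for Anxa7, without correction for fragment length. The order between S100 genes and annexins is therefore less certain. In Vehicle livers Anxa5 led at 4182 ± 803 per kilobase (SD, n = 6), above and apart from Anxa2 at 1729 ± 581, S100a11 at 1510 ± 477 and Anxa6 at 1325 ± 39.8, whose neighbours in this order overlapped. Anxa7 (1093 ± 82.4) and Anxa4 (718 ± 55.4) each stood apart from the genes next to them. The 4 scarce transcripts, S100a6 (126 ± 40.4), Anxa3 (103 ± 35.4), Anxa1 (75.6 ± 15.61) and S100a4 (62.2 ± 8.75), overlapped each with the next. In PairFed livers the order was Anxa5 (3530), Anxa6 (1310), Anxa2 (1231), S100a11 (1217), Anxa7 (1090), Anxa4 (671), S100a6 (89.4), Anxa3 (88.4), Anxa1 (63.7) and S100a4 (41.7). There only Anxa5, Anxa7 and Anxa4 stood apart from the gene ranked just below them.

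In GDF15 livers the order per kilobase was another. Anxa6 (1292 ± 105) and Anxa5 (1279 ± 125) overlapped at the top, and Anxa7 (908 ± 39.9) and Anxa4 (547 ± 40.6) each stood apart below them. S100a11 (308 ± 63.8) and Anxa2 (250 ± 49.8), both above Anxa7 by their means in the 2 control groups, lay below Anxa4 and overlapped with each other. Anxa3 (51.8 ± 4.15), S100a6 (47.9 ± 18.5) and Anxa1 (37.2 ± 5.60) overlapped as neighbours, and S100a4 (18.9 ± 7.17) stood apart at the bottom. With the longest coding transcript as the length, the orders in Vehicle and GDF15 livers were the same and S100a6 and Anxa3 changed places in PairFed livers.

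**Figure D4:**
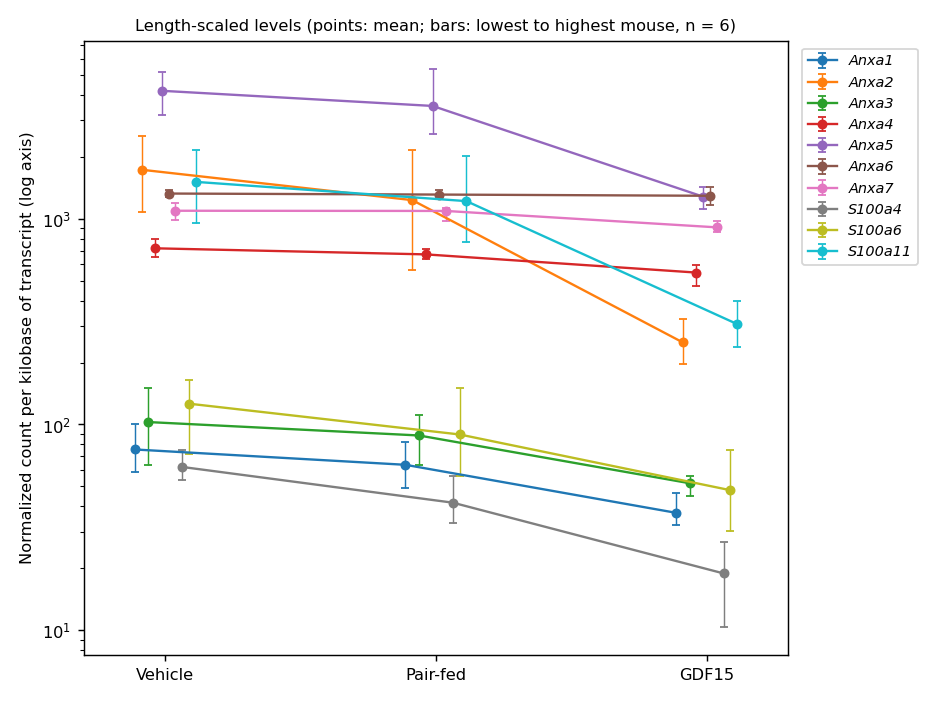
Normalised counts per kilobase of transcript (vertical axis, log scale) of the 10 transcripts in Vehicle, PairFed and GDF15 livers. Points are means and bars run from the lowest to the highest of 6 mice, and the lines of Anxa2 and S100a11 drop from above that of Anxa7 in Vehicle livers to below that of Anxa4 in GDF15 livers.

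Several of the transcripts also moved together from mouse to mouse within groups. After the group mean of log2(normalised count + 1) was taken from each sample, the deviations of Anxa2 and Anxa5 had a Pearson r of 0.957 and a Spearman rho of 0.977 over 18 samples (permutation within groups, p = 1e-05 for each, the smallest that 100000 permutations can give, 4.5e-05 after adjustment over 9 genes). For Anxa2 and S100a11, r was 0.925 and rho 0.911 (same permutation p). PairFed replicates 1 and 2 lay farthest out on Anxa2, and without them r was 0.958 for Anxa5 and 0.932 for S100a11. Within the single groups of 6, r with Anxa5 was 0.994 in Vehicle, 0.833 in GDF15 and 0.958 in PairFed livers, and r with S100a11 was 0.987, 0.792 and 0.952. For Anxa3, Anxa4, S100a6, Anxa1 and S100a4, r with Anxa2 was 0.765, 0.664, 0.592, 0.565 and 0.522, and rho was 0.699, 0.771, 0.626, 0.503 and 0.564. Without the same 2 samples their r was 0.761, 0.727, 0.610, 0.516 and 0.447. Permutation p-values adjusted over the 9 genes ran from 0.00054 for Anxa4 to 0.0429 for Anxa1, for which that of rho was 0.0827. For these 5 genes r was lower in the GDF15 group (0.127 for Anxa1, 0.286 for Anxa3, 0.385 for S100a4, 0.568 for S100a6 and 0.584 for Anxa4) than in the Vehicle group (0.668 to 0.948), a difference that was not tested. Anxa6 (r = 0.087, adjusted permutation p = 0.709) and Anxa7 (r = -0.104, adjusted permutation p = 0.709) showed no detectable correlation with Anxa2 over the 18 samples. By group, r ran from -0.552 in PairFed to 0.739 in GDF15 livers for Anxa6 and from -0.565 in PairFed to 0.353 in Vehicle livers for Anxa7. All of these values come from the same libraries, and the part of shared depth and cell make-up in them was not tested. The share of all genes with a like r is not given here. The closest genes outside the group also had a high r with Anxa2 (Gstm3 0.915, Tmem43 0.905). Whether the transcripts described here follow Anxa2 more closely than genes in general was not tested.

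**Figure D5:**
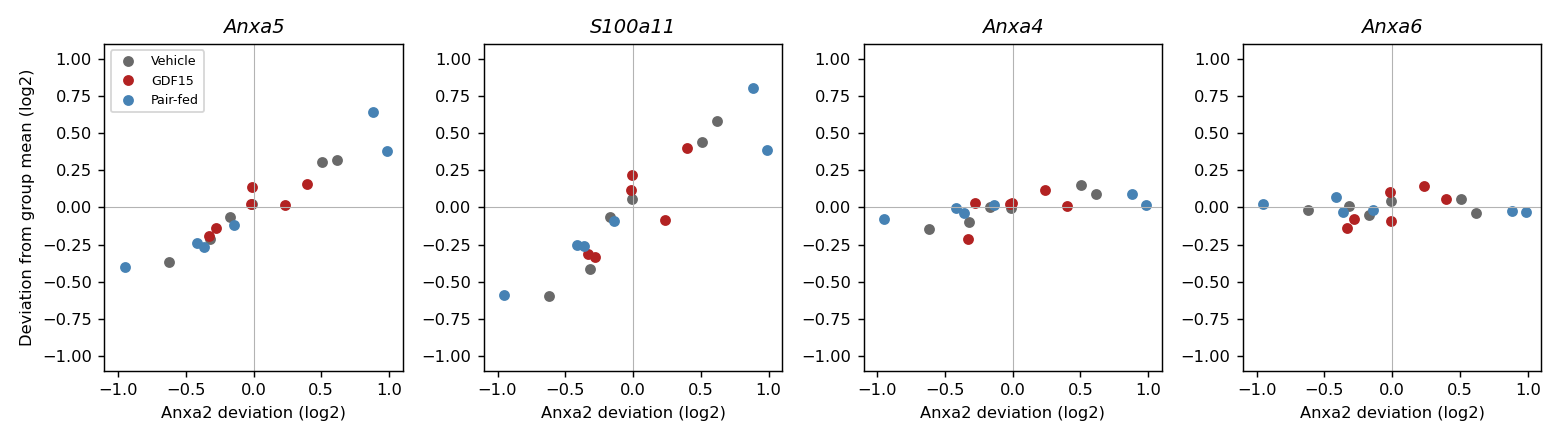
Deviation from the group mean on the log2 scale of Anxa5, S100a11, Anxa4 and Anxa6 (vertical axes) against that of Anxa2 (horizontal axes). Each point is 1 of 18 mice, coloured by group, and the points follow a rising line for Anxa5 (r = 0.957) and S100a11 (r = 0.925) but a flat one for Anxa6 (r = 0.087).

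Over 10874 genes with a mean normalised count of at least 50, the 3 genes outside the group whose deviations were most like those of each transcript were named, as a description over the 18 samples. For Anxa2 they were Gstm3 (r = 0.915), Tmem43 (0.905) and the fibrillar collagen gene Col3a1 (0.904). For Anxa5 they were Vat1 (0.935), Nudt18 (0.924) and Fkbp1a (0.922), and for S100a11 Nudt18 (0.939), Tm4sf4 (0.930) and the keratin gene Krt8 (0.918). Anxa3 was followed most closely by Pkm (0.949), Npdc1 (0.943) and Gramd1b (0.940). Those nearest to Anxa4 were Uap1l1 (0.896), Ppm1h (0.876) and the leukocyte gene Laptm5 (0.872), and those nearest to Anxa1 were Pkd2 (0.887), Cttnbp2nl (0.855) and the elastin gene Eln (0.849). S100a6 lay closest to Emp1 (0.907), Bicc1 (0.888) and Tspan8 (0.870), and S100a4 to the macrophage gene Folr2 (0.842), Csf2rb2 (0.826) and Ckb (0.817). The genes most like Anxa6 were Sulf2 (0.881), Kifbp (0.840) and Ildr2 (0.836), and those most like Anxa7 were Asb8 (0.836), Idua (0.830) and Eif4e3 (0.805). Being like a transcript in this sense did not mean that a gene changed with it between groups: Pkd2 had a log2 fold change of 0.0053 between GDF15 and Vehicle livers (DESeq2 adjusted p = 0.974) and Folr2 one of 0.085 (adjusted p = 0.771).

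The other genes of the pathway were read from 5 lists. Over all tested genes, 17.5% were called lower and 15.8% higher in GDF15 than in Vehicle livers. Against PairFed these shares were 13.8% and 13.3%. Of 5 further annexins 3 were in the table. Anxa9 was lower in GDF15 than in Vehicle livers (-1.03 ± 0.25, DESeq2 adjusted p = 3.20e-04) and than in PairFed livers (-0.84, adjusted p = 0.00508). Anxa8 was lower against PairFed (-1.46, adjusted p = 0.0115) and read -1.06 against Vehicle without passing (adjusted p = 0.0725). Anxa11, which ferries RNA granules on lysosomes, read 0.076 (adjusted p = 0.499). The family therefore did not move as one, since Anxa6 and Anxa11 kept intervals around 0 under this scaling.

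Of 13 further S100 genes, 10 were in the table and 7 had enough counts for an adjusted p in the GDF15 comparisons. In both of these 2 were lower and 5 did not pass, beside 17.5% and 13.8% of all tested genes called lower. The lower ones were S100a10 (above) and S100g, which encodes a calcium-binding protein of absorptive epithelia and read only 7.14 ± 4.63 normalised counts in Vehicle and 1.86 ± 1.52 in GDF15 livers (SD, n = 6; -1.87, DESeq2 adjusted p = 0.0153). S100a8 and S100a9, which form the neutrophil protein calprotectin, were scarce in all groups, at 7.79 ± 4.52 and 14.2 ± 5.28 in Vehicle livers. They read -0.12 (adjusted p = 0.884) and -0.79 (adjusted p = 0.0924) against Vehicle, with overlapping groups. S100a7a, S100a14 and S100b were at the limit of 3 counts.

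Among the receptors, 1 of 5 in the table was lower in both GDF15 comparisons, near the 17.5% and 13.8% of all tested genes. It was Cd36, a scavenger receptor and fatty acid transporter that binds S100A8/A9, with 5699 ± 363 normalised counts in Vehicle, 3298 ± 779 in GDF15 and 5522 ± 503 in PairFed livers (SD, n = 6). Its log2 fold change was -0.79 ± 0.13 against Vehicle (DESeq2 adjusted p = 2.89e-08) and -0.74 ± 0.13 against PairFed (adjusted p = 2.83e-07). The formyl peptide receptors of annexin A1, Fpr1 (-0.51, adjusted p = 0.187) and Fpr2 (-0.70, adjusted p = 0.203), did not pass against Vehicle. Nor did Ager, the receptor for several S100 proteins (-0.028, adjusted p = 0.968), or Tlr4, the endotoxin receptor (-0.25, adjusted p = 0.436).

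The binding partners and the plasmin system had the largest share of genes passing among these lists. Against Vehicle 7 of 9 were lower, 1 was higher and 1 did not pass, and against PairFed these were 6, 1 and 2. Of all tested genes, 17.5% were called lower and 15.8% higher against Vehicle, and 13.8% and 13.3% against PairFed. The median log2 fold change of this list against Vehicle was -0.48, beside -1.03 for the other annexins and -0.51 for the receptors. It was -0.12 for the other S100 genes and -0.056 for the membrane repair list below. Plat, tissue plasminogen activator, had a log2 fold change of -2.16 ± 0.37 (DESeq2 adjusted p = 1.24e-07). The urokinase receptor gene Plaur read -1.45 ± 0.35 (adjusted p = 3.14e-04) and the urokinase gene Plau -1.22 ± 0.21 (adjusted p = 3.62e-07). Pla2g4a, the cytosolic phospholipase that annexin A1 is known to inhibit, read -0.87 ± 0.30 (adjusted p = 0.0152). Plg, the plasminogen gene, which hepatocytes make, was the one that rose, by 0.57 ± 0.09 (adjusted p = 4.08e-09), with 38077 ± 4915 normalised counts in Vehicle and 56510 ± 6339 in GDF15 livers (SD, n = 6).

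Of 11 genes of membrane repair and vesicle scission, 5 were lower, 0 higher and 6 did not pass, with the same counts against PairFed. Beside them, 17.5% of all tested genes were called lower against Vehicle and 13.8% against PairFed. The lower ones against Vehicle were the ferlin gene Myof (-1.09 ± 0.27, DESeq2 adjusted p = 3.74e-04), the caveolar gene Ehd2 (-0.89 ± 0.19, adjusted p = 3.71e-05), and by less the calpain genes Capn2 (-0.39 ± 0.09, adjusted p = 2.08e-04) and Capn1 (-0.30 ± 0.05, adjusted p = 9.14e-07) and the ESCRT-III gene Chmp4b (-0.19 ± 0.05, adjusted p = 8.06e-04). Between PairFed and Vehicle livers 0 genes of the 5 lists were called by DESeq2 and 0 by edgeR, and at an unadjusted p under 0.05 there was 1 by each tool (Plat).

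Markers of several cell types that carry annexins and S100 proteins moved with the group. The counts below stand beside 17.5% of all tested genes called lower against Vehicle and 13.8% against PairFed. Of 8 markers of activated stellate cells and fibroblasts 7 were lower in GDF15 livers in both comparisons, and their summed normalised count ran from 7336 to 13658 in Vehicle, from 3396 to 5125 in GDF15 and from 6292 to 11082 in PairFed livers. Of 8 macrophage and leukocyte markers 7 were lower against Vehicle and 5 against PairFed (sums 3418 to 6927, 2131 to 4398 and 3278 to 5498). Clec4f passed in neither, at 0.15 against Vehicle (DESeq2 adjusted p = 0.550) and -0.0084 against PairFed (adjusted p = 0.981), and Adgre1 and Itgam did not pass against PairFed. Of 5 markers of lipid-associated macrophages 5 and 4 were lower (sums 3113 to 9731, 1430 to 2801 and 2935 to 7188). Most of this sum was Spp1, with a mean of 4867 in Vehicle livers, where the mean sum was 6294. Their part in the falls of the 9 transcripts was not tested.

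Other lists moved in part or not. Here too, 17.5% of all tested genes were called lower and 15.8% higher against Vehicle, and 13.8% and 13.3% against PairFed. Of 5 cholangiocyte markers above the limit of detection 5 were lower against Vehicle and 1 against PairFed (sums 234 to 757, 159 to 275 and 196 to 532). Of 6 endothelial markers 1 and 2 were lower, and the sums overlapped (2305 to 3196, 1645 to 2899 and 2472 to 3260). Of the neutrophil markers, which include S100a8 and S100a9, 1 of 4 tested was lower against Vehicle and 1 of 3 against PairFed, the sums were 45.4 to 122, 31.0 to 71.9 and 56.0 to 92.0, and the defining markers Mpo and Retnlg were at the limit of detection. Of 4 mesothelial markers 1 was lower against Vehicle and 0 against PairFed (sums 86.6 to 289, 58.5 to 232 and 24.99 to 207). Of 6 hepatocyte markers 4 were higher and 0 lower in both comparisons. The part of these cell types was not tested either.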

How the data were processed

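Liver RNA from 18 mice was sequenced from stranded libraries. The authors trimmed reads with Trim Galore, quantified them with Salmon against mm10 (versions not given in the sources used here) and deposited 1 table of estimated counts, summed by gene symbol, as unscaled whole numbers. The table held 16245 genes with row totals of at least 5. Salmon splits reads shared by near-identical transcripts, so values of close paralogues are less certain.

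Groups and replicate numbers came from the sample titles. The 10 genes, the lists of other genes and the tests were chosen with earlier results of these data known. All 18 samples were fitted with DESeq2 1.42.0 (R 4.3.3) on group, with median-of-ratios size factors, Wald tests, unshrunken fold changes and Benjamini-Hochberg adjustment after independent filtering at 0.05. The same procedure was tested on simulated data. A gene passed at an adjusted p under 0.05. The limit of detection was 3 counts, which covers counting error only. Log2 ratios used a pseudocount of 0.5 and exact permutation tests over 924 splits. Correlations used 100000 permutations within groups (SciPy 1.17.1). All 10 genes were named, as were every tested gene of lists with 6 or fewer such genes, the 5 passing genes with the largest changes of longer lists, S100a8, S100a9 and S100a10, and the 3 genes most like each of the 10.

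Alternatives were edgeR 4.0.16 (quasi-likelihood, TMM), TMM size factors, a filter of 10 counts in 6 samples, no independent filtering, the 12 samples compared, a replicate block, subsets of the PairFed libraries or replicates, a fold-change threshold, a pseudocount of 1, leaving out each sample, and total-count scaling, chosen after seeing the data. Gene positions came from GENCODE M21 and promoter windows from RefSeq.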

Additional observations from a re-analysis of the deposited data

Results flagged for a closer look

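In 3 of the 36 groups of 6 samples examined, 1 mouse stood further from the rest than Dixon's 95% critical value (0.625) allows, where chance alone gives 1.8. Anxa4 was lowest in GDF15 replicate 6, at 949 normalised counts against 1107 in the next liver. Anxa7 was lowest in PairFed replicate 1, at 2791 against 3121. S100a6 was highest in PairFed replicate 1, at 89.4 against 52.7, the same liver that had the highest Anxa2 value of its group.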

How the results depend on the processing

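Between GDF15 and Vehicle livers, 107 of 110 fold changes over 11 alternatives and 180 of 180 with 1 sample left out kept their direction and their side of the threshold. Between GDF15 and PairFed livers these were 100 of 110 and 178 of 180, and between PairFed and Vehicle livers 102 of 110 and 176 of 180. With a 2-fold threshold 4 transcripts were lower than in PairFed livers, and with replicates 4 to 6 alone 5 were (Anxa1, Anxa3, S100a4 and S100a6 were lost), with fewer samples. Replicates 1 to 3 alone gave 8 against Vehicle, without Anxa7, and 7 against PairFed, without Anxa7 and S100a6, and without the 3 smallest PairFed libraries 7 were lower than in PairFed. Total-count scaling gave 10 in both GDF15 comparisons. The added transcript was Anxa6, at -0.21 and -0.18, close to the shifts of the median gene under that scaling (-0.17 and -0.16). Between PairFed and Vehicle livers 2 transcripts were called without the 3 smallest PairFed libraries and 1 (Anxa2) with replicates 4 to 6 alone. Both settings leave out PairFed replicates 1 and 2, the highest of that group on Anxa2 and Anxa5. Estimates near 0 changed sign: Anxa6 read 0.070 against Vehicle and 0.074 against PairFed with replicates 1 to 3 alone, and from -0.048 to 0.0096 against PairFed with 1 sample left out. Between PairFed and Vehicle, Anxa3 and Anxa5 read 0.034 and 0.011 without the 3 largest PairFed libraries, and Anxa7 read 0.000445 in the 12 samples compared, 0.020 without the 3 smallest PairFed libraries, 0.021 with replicates 1 to 3 alone and -0.031 to 0.024 with 1 sample left out. The causes were not tested.

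The replicate block called 9, 9 and 0 transcripts, as without it. As a paired sign-flip test it gave an adjusted exact p = 0.0375 for the Anxa2 to S100a10 ratio between PairFed and Vehicle (-0.53). With 1 sample left out that ratio ran from -0.68 to -0.43, and that of Anxa1 to S100a11 from -0.020 to 0.240. Same-numbered samples correlated on average by 0.161 between Vehicle and PairFed, 0.0117 between Vehicle and GDF15 and 0.0252 between GDF15 and PairFed. Of 6 pairs 3, 2 and 3 were over 0.1. Differently numbered samples correlated on average by -0.033, -0.0011 and -0.0052, with 8, 7 and 6 of 30 pairs over 0.1. The numbers were not taken to pair mice, though between Vehicle and PairFed the same-numbered mean was the higher. Among the 10 transcripts S100a4 had the fewest counts, at 5.16 to 13.3 normalised counts in GDF15 livers.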
